A study of Mus musculus with 12 samples.

Results

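The comparison set adipocytes at day 9 (D9) against cells at day 2 (D2) of adipocyte differentiation, both after transfection with a control siRNA. It was made by taking the Ctrl-siRNA arrays alone, 3 at D9 and 3 at D2, which are 6 of the 12 arrays of the series, and by keeping every probe set that carries exactly 1 gene symbol. This left 30638 of 72688 probe sets and, with the brightest probe set kept for each gene, 30098 genes. Every gene was tested, and no measured value entered the choice of arrays or genes.

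The cells are 3T3-L1, a clonal line of mouse embryo fibroblasts that turns into fat cells in culture, so all 6 arrays carry the same clone and no transgene. Total RNA was labelled for a whole-transcript mouse array. The D2 Ctrl-siRNA cells received the non-targeting siRNA when differentiation was induced at D0 and spent the time up to collection in serum medium with dexamethasone, IBMX and insulin. The D9 Ctrl-siRNA cells had the same induction, then insulin medium from D2 to D4 and serum medium alone afterwards. They were trypsinised as adipocytes and transfected with a control siRNA in suspension, so they had been detached and plated again before collection. The D2 arrays come from experiments 1, 2 and 3 and the D9 arrays from experiments 4, 5 and 6. Day, experiment, medium at collection and mode of transfection cannot be told apart in any difference given here. The labels do not say whether the experiments used separate thaws or passages, so a p-value here weighs only how far the 3 arrays of a day lie apart.

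Adipocyte differentiation of 3T3-L1 cells is driven by a cascade of transcription factors. C/EBPβ and C/EBPδ answer the hormone cocktail within hours, and they switch on PPARγ and C/EBPα, which turn on the genes of lipid uptake, storage and adipokine secretion. The growth-arrested cells re-enter the cell cycle soon after induction, a phase called mitotic clonal expansion, and leave it before lipid accumulates.

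Values are deposited log2 intensities, given in the order of experiments 1, 2 and 3 for D2 and 4, 5 and 6 for D9. A difference is D9 minus D2 on the log2 scale with its standard error (SE, n = 3 arrays per day), and "higher" or "lower" as a call means an adjusted p under 0.05 in a limma fit over all 30098 genes. A value counts as above background when it exceeds the brightest of 23 background probe sets on the same array. Where a gene was below background on all 3 arrays of a day, the fold is a lower bound, written "at least", from the bright day's mean against that background limit. Correlations over all genes were 0.977 to 0.994 between D2 arrays, 0.991 to 0.994 between D9 arrays and 0.928 to 0.953 across the days. The D2 array of experiment 1 stood apart from the other D2 arrays. It lay over 2 log2 units from their mean for 335 of 12150 genes, against 89 and 41 for experiments 2 and 3, so differences of named and called genes that moved by over 1.5-fold without it are also given without it. Where a gene passed background on only some arrays of its dimmer day, the measured difference rests partly on values at background. This held with 1 D2 array above background for Cavin2, Ccl2, Kcnk3, Lgals12, Mir193b and Rora, and with 2 for Adipoq, Cd36, Dbp, Dbt, Gpd1, Mir29a, Ogn, Phyh, Plin1 and Thbs1. At D9 it held with 1 array for Ear-ps9, Kif11, Plk1, Rrm2 and Ccnb1-ps and with 2 for Cd68, Cxcl1, Ear10, H2ac15, Nfil3 and Ube2c. These are bulk samples, in which fewer cells of a kind and less RNA per cell cannot be told apart.

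At D9, 4078 genes were higher, which is 13.5% of the genes tested, and 6096 were lower, 20.3%. By a second rule, a fold of at least 1.5 with an unadjusted p under 0.05, 13.4% were higher and 17.1% were lower. The split differed between bright and dim genes and moved with the scaling. Among the 12150 genes above background on at least 3 arrays, 3204 were higher and 2182 lower, 26.4% and 18.0%. Among the 16658 genes above background on no array, 587 were higher and 3630 lower, 3.52% and 21.8%, and no fold is given for those. Counts of the gene lists below include such dim members and are to be read beside these shares. The median difference over all genes was −0.19, with −0.05 after quantile normalisation, which also changed the split to 4507 higher and 5125 lower. It gave 2553 higher and 2613 lower among the 12150 brighter genes and 1639 higher and 2241 lower among the 16658 dim ones. Subtracting each array's median instead gave 4964 higher and 5106 lower. The D9 arrays spread more widely, with an interquartile range of 3.82 to 3.91 log2 units against 3.26 to 3.59 at D2.

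**Figure D1:**
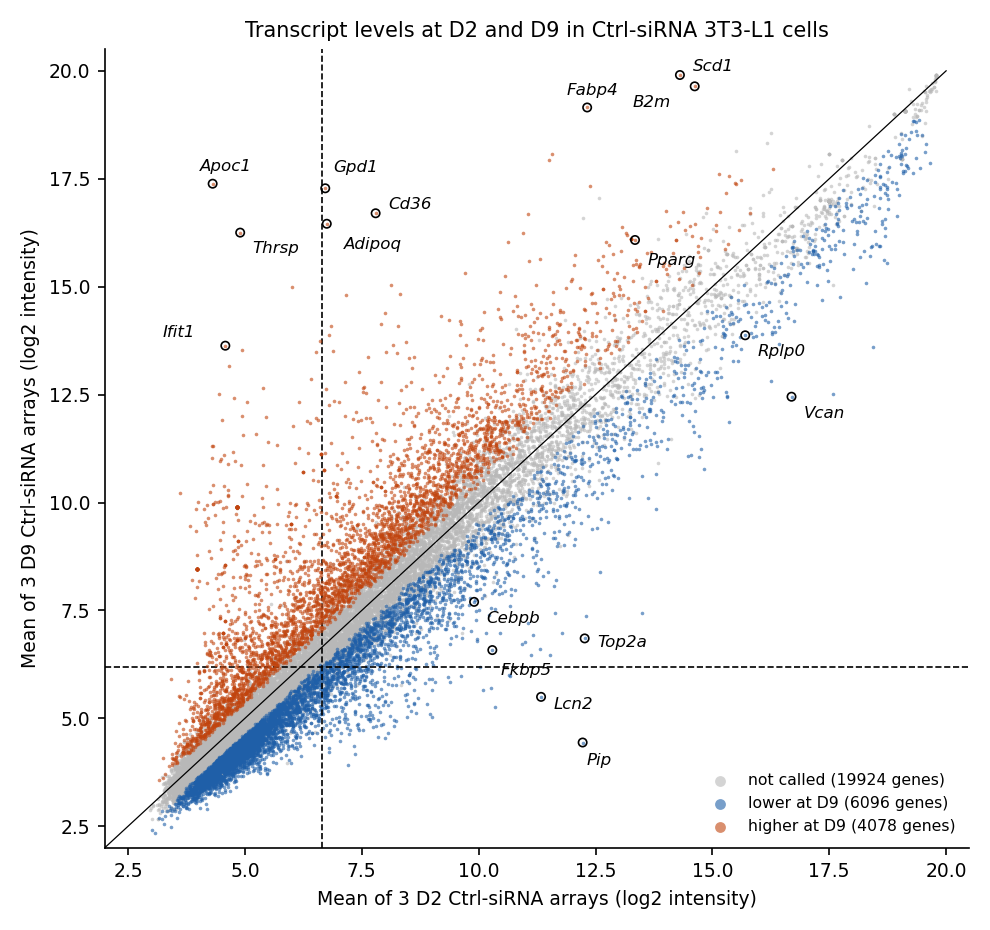
Mean log2 intensity of each gene over the 3 D9 arrays (y axis) against the 3 D2 arrays (x axis), with genes higher at D9 (4078) and lower at D9 (6096) coloured, some genes described in the text named, and dashed lines at the mean background limit of each day. Genes of lipid storage and interferon-stimulated genes lie far above the diagonal, and Pip and Lcn2 lie far below it.

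The largest increases, ranked by the measured difference even where a day was below background and the fold is only a bound, combined lipid genes with interferon-stimulated genes. Apoc1, which encodes an apolipoprotein of lipid particles, read 4.31, 4.32 and 4.30 at D2 and 17.39, 17.61 and 17.15 at D9. All D2 values were below background and all D9 values far above it, a rise of at least 1709-fold (adjusted p = 5.20e-07). Thrsp, a regulator of lipogenesis, read 4.91, 4.95 and 4.84 and then 16.28, 15.85 and 16.63, at least 779-fold higher. Gpd1, the enzyme that makes glycerol 3-phosphate for triglyceride, read 6.15, 7.26 and 6.75 at D2 and 17.22, 16.84 and 17.77 at D9. This gene rose by 10.56 (SE 0.34, adjusted p = 2.31e-05), with no overlap between days. Lgals12, a galectin of lipid droplets, rose by 8.98 with a D2 mean at background, and Cd36, the fatty acid transporter, by 8.90, or 7.75 without experiment 1. Pck1, which feeds glycerol synthesis in fat cells, was at least 91.5-fold higher, and the acute phase protein gene Orm1 rose by 7.63. The other genes among the 15 largest increases in this rank were Adipoq and the interferon-stimulated Ifit1, Usp18, Ifit3, Gbp2, Gbp3, Ifit3b and Gbp7.

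The largest decreases, ranked in the same way, were led by secreted proteins and by genes of dividing cells. Pip, which encodes prolactin-induced protein, read 10.65, 12.86 and 13.17 at D2 and 4.34, 4.13 and 4.85 at D9. Pip was bright on every D2 array and below background on every D9 array, at least 65.7-fold lower (adjusted p = 4.71e-04). Lcn2, lipocalin 2, read 11.52, 10.71 and 11.78 and then 5.20, 5.89 and 5.41, at least 35.5-fold lower. Neighbouring loci of the eosinophil-associated ribonuclease family, Ear-ps2, Ear10 and Ear-ps9, fell by 6.05, 5.06 and 4.68, or by 6.95, 6.04 and 5.68 without experiment 1, and their sequences are so alike that the probe sets may read each other. Fam107a was at least 17.9-fold lower, and Prg4, which encodes the lubricant proteoglycan lubricin, fell by 4.81, or by 5.46 without experiment 1. The rest of the 15 were the histone genes H2ac10, H2ax, H2ac14 and H2ac15 and the mitotic genes Top2a, Ube2c, Plk1 and the pseudogene Ccnb1-ps.

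White adipocyte markers rose together. Of 22 measured, 16 were higher and 1, Rbp4, which was below background on all arrays, was lower, against 13.5% and 20.3% of all genes, and their median difference was 4.61. Rbp4 was not called without experiment 3, 4 or 6 (adjusted p = 0.0649 to 0.0930). Adipoq, which encodes the adipocyte hormone adiponectin, read 4.81, 7.84 and 7.60 at D2 and 16.49, 16.40 and 16.48 at D9. This gene rose by 9.71 (SE 0.76, adjusted p = 3.79e-04), or 8.74 without experiment 1, and every D9 value lay far above every D2 value. Fabp4, the fatty acid binding protein of fat cells, read 7.33, 14.96 and 14.67 and then 19.40, 18.95 and 19.10, a rise of 6.83 (SE 1.94, adjusted p = 0.0358). The D2 array of experiment 1 was low for it, and without that array the rise was 4.34 (adjusted p = 4.72e-04), while it was not called after quantile normalisation (adjusted p = 0.0510) or without any 1 of the D9 arrays (adjusted p = 0.0950, 0.0764 and 0.0973 without experiments 4, 5 and 6). Plin1, the perilipin that coats lipid droplets, read 5.90, 9.00 and 9.08 and then 14.43, 14.15 and 14.55, a rise of 6.38 (adjusted p = 0.00235), or 5.34 without experiment 1. Slc2a4, the insulin-responsive glucose transporter, was below background at D2 and read 9.74, 9.94 and 10.61 at D9, at least 10.9-fold higher. Retn, which encodes resistin, rose by 6.49, and Lpl, the lipase that frees fatty acids from lipoproteins, by 6.44. Without experiment 1 these rises were 5.05 and 4.59, and Lpl was not called without experiment 4 or 6 (adjusted p = 0.0522 and 0.0568). Lep, the leptin gene, was called higher but was above background on 1 D9 array alone, and Adig and Trarg1, which encode small membrane proteins of fat cells, were at least 13.5-fold and 18.8-fold higher.

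The mean of the 19 white adipocyte markers above background was 7.21 on the D2 array of experiment 1, against 10.09 and 9.63 on the other D2 arrays and 14.43, 14.33 and 14.79 at D9. Experiment 1 was thus the lowest of the D2 arrays for these genes and widened their spread at D2. Cidec and Dgat2, which act in droplet growth and in the last step of triglyceride synthesis, show it. Cidec read 8.82, 15.16 and 13.71 at D2 and 17.32, 16.65 and 17.18 at D9, with an adjusted p of 0.0586 over 6 arrays and 0.0123 without experiment 1. Dgat2 read 8.49, 14.33 and 13.86 and then 16.52, 16.29 and 16.98, with an adjusted p of 0.0589, and 0.00279 without experiment 1.

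**Figure D2:**
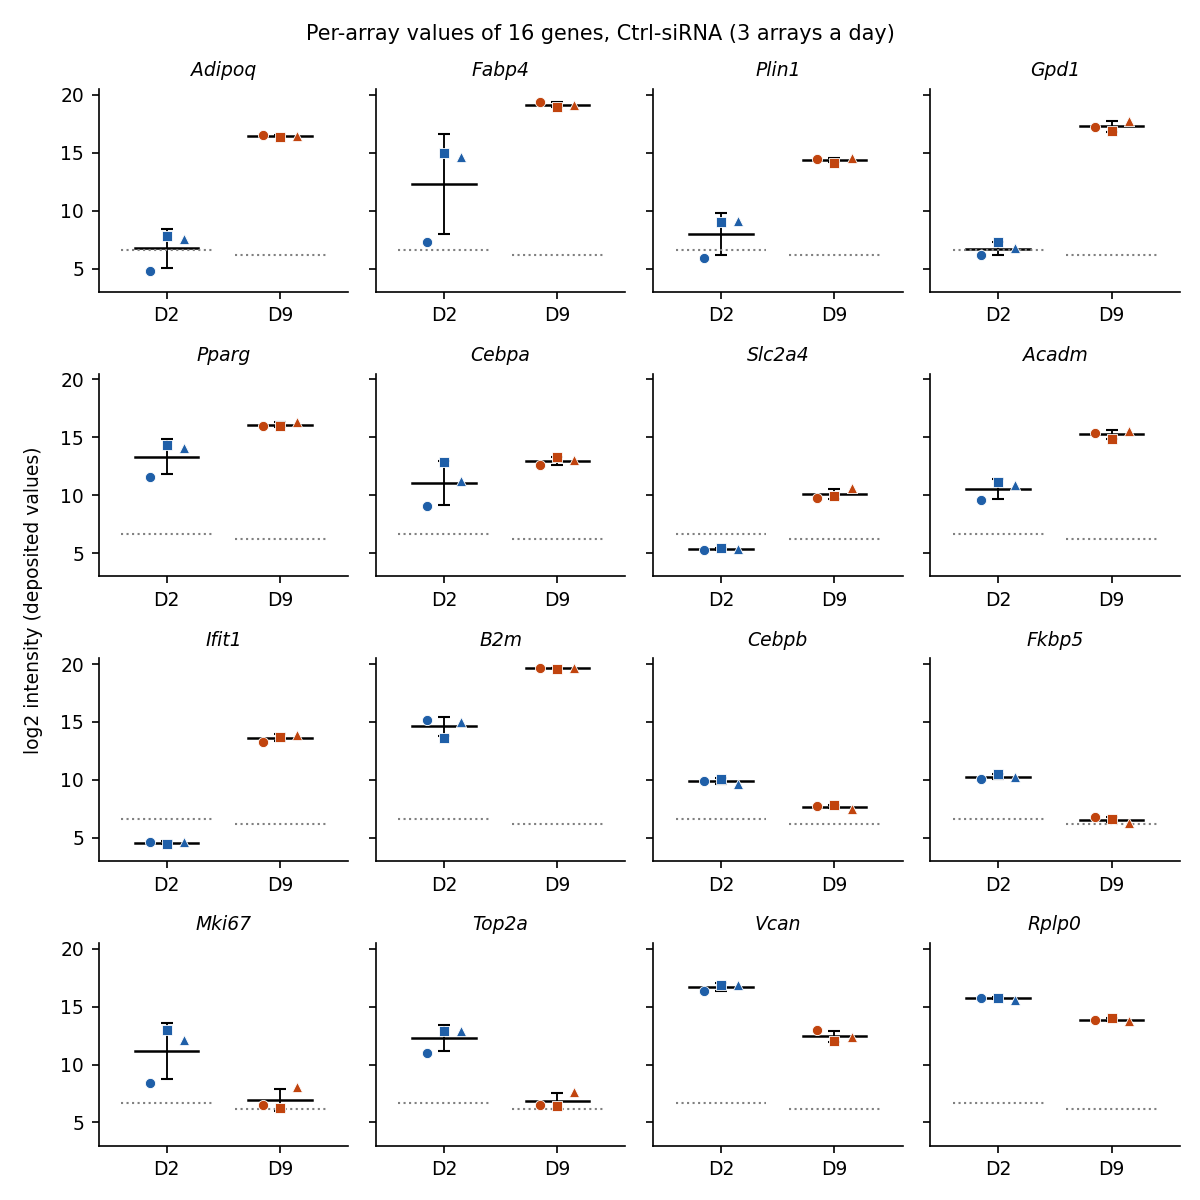
Log2 intensity of 16 genes on each Ctrl-siRNA array at D2 (3 arrays) and D9 (3 arrays), with the mean of each day as a bar. Adipoq sits between 16.40 and 16.49 on all D9 arrays, while for Fabp4 the D2 array of experiment 1 lies at 7.33, far under the other D2 arrays at 14.96 and 14.67.

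The transcription factors of the cascade moved in opposite directions. Pparg, the master regulator of fat cells, read 11.58, 14.36 and 14.09 at D2 and 15.97, 15.94 and 16.33 at D9, a rise of 2.74 (SE 0.70, adjusted p = 0.0259), or 1.85 without experiment 1. It was not called without experiment 4, 5 or 6 (adjusted p = 0.0681, 0.0572 and 0.0845). Cebpb, an early factor of the cascade, read 9.93, 10.12 and 9.66 and then 7.74, 7.82 and 7.53. It fell by 2.21 (SE 0.16, adjusted p = 3.25e-04), with no overlap. Cebpa read 9.04, 12.86 and 11.21 at D2 and 12.62, 13.28 and 13.01 at D9, and Cebpd read 9.86, 7.47 and 7.40 and then 6.44, 7.11 and 6.48. Neither was called (adjusted p = 0.130 and 0.108), and for Cebpa the days overlapped. Of 27 adipogenic transcription factors, 11 were higher and 3 lower, with Ebf1 (2.51), the liver X receptor gene Nr1h3 (1.86), Klf6 (2.04) and the glucocorticoid receptor gene Nr3c1 (1.98) among the higher and Klf5 (−2.51) and the retinoid X receptor gene Rxra (−1.65) beside Cebpb among the lower. Rxra was not called without experiment 5 or 6 (adjusted p = 0.0599 and 0.0868). Rxrg, a second retinoid X receptor gene, was at least 1.16-fold higher.

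Of 21 preadipocyte and progenitor markers, 3 were higher and 7 lower (3 lower without experiment 4, 5 or 6), beside 13.5% and 20.3% of all genes. Of the 7, 3 were below background on all arrays. The mean of the 12 above background was 9.82, 9.04 and 9.17 at D2 and 8.92, 8.94 and 9.10 at D9. Sox9, a progenitor factor that also marks cartilage, fell by 2.83, and Cd248, a stromal surface protein, by 2.81. Dlk1, the preadipocyte factor that restrains differentiation, differed by −0.68 (adjusted p = 0.302), so the test gave no call for it.

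Lipid droplet proteins were higher for 10 of 20 genes and lower for 2, and genes of fatty acid uptake and binding were higher for 9 of 19 and lower for 3. Cavin2, Cav2 and Cav1, which build caveolae, rose by 5.35, 3.68 and 3.31, with 3.06 for Cav2 without experiment 1. Triglyceride synthesis had 7 of 18 genes higher and 3 lower. Lipolysis had 9 of 17 higher and 1 lower. Lipe, the hormone-sensitive lipase, read 8.57, 12.31 and 10.54 at D2 and 14.71, 13.92 and 14.10 at D9, a rise of 3.77, or 2.82 without experiment 1 (adjusted p = 0.0179, and 0.0606 and 0.0560 without experiment 4 or 6). Pnpla2, the adipose triglyceride lipase, rose by 3.30, or 2.71 without experiment 1, and Aqp7 and Pnpla3, a glycerol channel and a lipid droplet enzyme, were at least 40.1-fold and 21.8-fold higher.

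Fatty acid synthesis had 17 of 23 genes higher and 1 lower, with a median of 2.76. Scd1, the desaturase that makes monounsaturated fatty acids, read 14.60, 15.61 and 12.71 at D2 and 19.93, 19.85 and 19.93 at D9. On 2 D9 arrays it sat at the highest value the table holds, so its rise of 5.60 may be too small. Fasn, the fatty acid synthase, read 11.99, 14.00 and 12.00 and then 15.17, 15.32 and 16.65, a rise of 3.05 (SE 0.64, adjusted p = 0.0132). Acaca, which makes the malonyl-CoA that Fasn uses, rose by 2.29, Me1, a source of NADPH, by 4.42 (3.69 without experiment 1), and the citrate carrier gene Slc25a1 by 3.61. The D9 array of experiment 6 was the highest for Fasn, Acaca and Me1. Acly, the citrate lyase, read 10.54, 10.98 and 10.16 and then 10.85, 11.19 and 13.00, and was not called (adjusted p = 0.160).

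Cholesterol synthesis and uptake showed the same array more strongly. Of 19 genes, 8 were higher and 1 lower, with 5 higher after quantile normalisation and 5, 4 and 5 higher without experiments 1, 3 and 6. The list mean was 8.01, 8.69 and 7.90 at D2 and 9.06, 9.37 and 10.88 at D9. Insig1, the sterol sensor that holds back SREBP processing, read 7.64, 9.04 and 8.14 and then 13.17, 13.59 and 15.51, a rise of 5.82 (SE 0.65). Fdps, a farnesyl diphosphate synthase, read 7.95, 8.89 and 7.74 and then 10.64, 11.43 and 13.39, a rise of 3.63. For both genes every D9 value lay above every D2 value and experiment 6 gave the highest.

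Oxidative pathways rose broadly. Of 32 genes of mitochondrial and peroxisomal fatty acid oxidation, 28 were higher and 0 lower (median 2.70), and of 24 genes of branched-chain amino acid breakdown, 23 were higher and 0 lower (median 2.95). Acadm, the medium-chain acyl-CoA dehydrogenase, read 9.60, 11.19 and 10.88 at D2 and 15.37, 14.82 and 15.58 at D9, a rise of 4.70 (SE 0.43, adjusted p = 6.57e-04). Cat, the peroxisomal catalase, rose by 4.95, Phyh, of branched fatty acid breakdown, by 4.54 and Hadhb, of the trifunctional protein, by 4.06. Cpt1a, the liver form of the carnitine palmitoyltransferase that admits fatty acids to mitochondria, read 10.50, 9.76 and 10.30 and then 9.23, 9.65 and 9.75 and was not called (adjusted p = 0.0748).

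Among branched-chain enzymes, Aldh6a1, of valine breakdown, read 10.39, 11.76 and 11.04 at D2 and 17.07, 16.07 and 16.90 at D9, a rise of 5.61 (SE 0.40, adjusted p = 2.94e-04). Dbt and Bckdha, subunits of the branched-chain ketoacid dehydrogenase, rose by 5.30 and 4.00. Mitochondrial Bcat2, the transaminase that starts the pathway, rose by 3.48, whereas cytosolic Bcat1 read 8.17, 6.75 and 6.69 and then 6.18, 5.83 and 6.13 and was the only member not called. Of 27 genes of pyruvate oxidation and the TCA cycle, 19 were higher and 1 lower (median 1.98), with Pdk2 up by 3.47, Sdha by 3.31 and the citrate synthase gene Cs by 2.24.

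Oxidative phosphorylation had 48 of 73 genes higher and 2 lower, with a median of 1.24, and mitochondrial ribosomal proteins had 37 of 72 higher, or 23 without experiment 6, and 4 lower. The lower genes were Ndufc1, of complex I, which was not called without experiment 3, 4, 5 or 6 (adjusted p = 0.0574 to 0.0855), and Atp5g1. Atp5g1, 1 of several genes for its c subunit, read 11.16, 11.15 and 11.27 at D2 and 9.03, 9.05 and 9.47 at D9, and fell by 2.01 (SE 0.16, adjusted p = 3.72e-04). Cox7a1, a cytochrome oxidase subunit typical of heart, muscle and brown fat, was below background at D2 and at least 18.7-fold higher at D9.

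Brown and beige adipocyte markers had 7 of 19 genes higher and 1 lower. Cox8b read 3.91, 3.42 and 3.52 at D2 and 9.28, 10.57 and 10.82 at D9, at least 11.9-fold higher, and Slc36a2, an amino acid carrier, was at least 19.9-fold higher. Kcnk3, a potassium channel, rose by 4.80, and Cidea and Ppargc1a were at least 3.63-fold and 2.91-fold higher. Ucp1, which encodes the uncoupling protein that defines thermogenic fat, read 4.18, 3.69 and 3.87 and then 4.34, 4.45 and 4.25, below background on all 6 arrays (adjusted p = 0.0789). Prdm16 and Dio2, the gene of a brown fat regulator and of a deiodinase, were also below background on all 6.

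Glucose genes rose in part. Of 25 genes of glucose transport and glycolysis, 11 were higher and 1 lower (7 and 5 higher without experiments 3 and 6), and of 21 genes of the pentose phosphate and glycogen pathways, 13 were higher and 2 lower. Ppp1r3c, which targets a phosphatase to glycogen, read 8.74, 8.50 and 8.63 at D2 and 12.77, 13.82 and 13.55 at D9, a rise of 4.75 (SE 0.27, adjusted p = 1.24e-04). Gbe1, the glycogen branching enzyme, rose by 4.06. Insulin and IGF signalling had 9 of 33 genes higher and 9 lower. The shares were 13.5% and 20.3% of all genes and 26.4% and 18.0% of the brighter ones. Irs1, the insulin receptor substrate, rose by 3.01 and the receptor gene Insr by 2.53, while Pik3r1, the regulatory subunit of the lipid kinase below them, read 13.02, 14.15 and 14.05 and then 11.92, 11.01 and 11.90 and fell by 2.13.

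Secreted products rose in 16 of 34 genes and fell in 6. Of the 6, 3 were below background on all arrays. Rarres2, which encodes chemerin, was at least 27.1-fold higher and Angptl8 at least 4.72-fold. Nampt, of NAD synthesis, rose by 3.40, Hp, haptoglobin, by 4.28 and Vegfa, the vascular growth factor, by 1.88. Lcn2 was the largest decrease of the list.

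**Figure D3:**
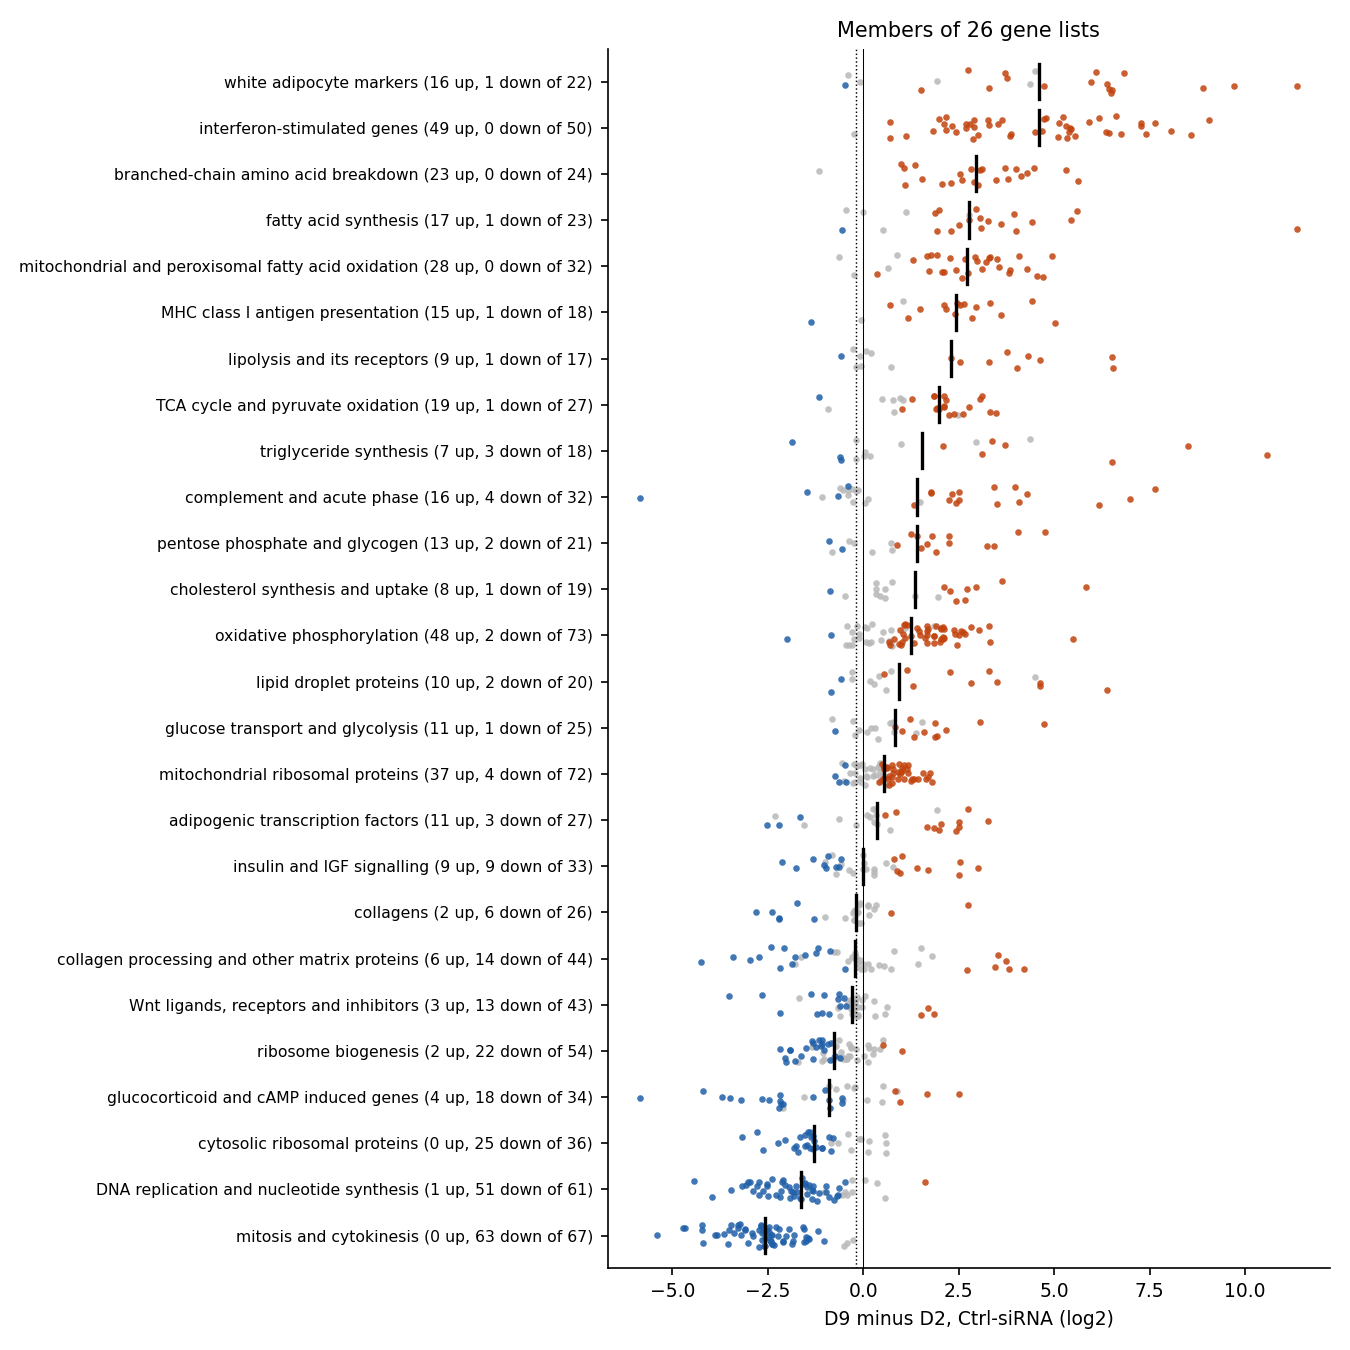
D9 minus D2 difference (log2) of each measured member of 26 gene lists, 1 point per gene, with the list's median and coloured points for called genes, and a dotted line at the median of all genes (−0.19). Branched-chain amino acid breakdown (median 2.95) and interferon-stimulated genes (median 4.59) lie to the right of zero and mitosis (median −2.57) to the left.

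Interferon-stimulated genes formed the most uniform group of increases. Interferons act through a receptor and transcription factors that bind a DNA element built around paired GAAA repeats near the start of these genes, and the products sense foreign RNA, block its translation and present antigen. Of 50 measured genes, 49 were higher and 0 lower, with a median of 4.59. It was 2.95 over the 46 that could be set at a bound or a measured difference. Ifit1, whose product binds foreign RNA, read 4.66, 4.46 and 4.62 at D2 and 13.28, 13.75 and 13.87 at D9, at least 127-fold higher (adjusted p = 5.12e-06). Usp18, which removes ISG15 from proteins, read 4.85, 4.78 and 5.20 and then 13.03, 13.70 and 13.84, at least 117-fold higher. All 3 D2 values of both genes were below background.

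Guanylate-binding protein genes, which act against intracellular pathogens, followed. Gbp2 read 4.83, 4.53 and 4.95 at D2 and 12.13, 12.45 and 12.67 at D9, at least 54.6-fold higher. Gbp7 was at least 64.4-fold and Gbp3 at least 38.6-fold higher. Genes of the Ifit and Gbp families sit in clusters of related genes, so any signal shared between close copies cannot be separated by probe set. Genes outside these clusters were higher too. Stat2, part of the interferon signalling complex, read 7.69, 7.26 and 7.66 and then 11.88, 13.08 and 13.01, a rise of 5.12 (SE 0.34, adjusted p = 2.13e-04). Irf7 was at least 11.6-fold, Irf9 at least 4.56-fold, Mx2 at least 23.1-fold, Xaf1 at least 30.6-fold and Isg15 at least 3.20-fold higher. The mean of 47 members above background was 5.56, 5.25 and 5.44 at D2 and 9.74, 10.30 and 10.09 at D9, with no overlap, and Oasl1, below background on all arrays, was the single gene not called.

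Promoters of 5 of these genes are shown for the element that interferon signalling acts through, with the matches to GAAANNGAAA or its reverse complement in capitals. They are RefSeq sequences of GRCm38.p6 in the direction of the gene. Ifit1 covers chr19:34640777-34640821 on the plus strand, 112 to 68 bases before its start, and Ifit3 chr19:34583365-34583424 on the plus strand, 164 to 105 bases before. Gbp2 covers chr3:142620596-142620621 on the plus strand, 67 to 42 bases before, and Gbp7 chr3:142530275-142530300 on the plus strand, 61 to 36 bases before. Isg15 covers chr4:156200867-156200904 on the minus strand, 86 to 49 bases before, and its 3 matches overlap.
Ifit1: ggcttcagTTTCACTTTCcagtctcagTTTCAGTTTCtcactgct
Ifit3: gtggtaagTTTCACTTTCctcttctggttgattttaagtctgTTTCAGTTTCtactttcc
Gbp2: tcttttagTTTCACTTTCactgtctt
Gbp7: gtgtgcagTTTCAGTTTCagttctcc
Isg15: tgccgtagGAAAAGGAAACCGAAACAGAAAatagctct
Searched on both strands of windows from 250 bases before to 50 after the gene start, the motif lay in 22 of 38 interferon-stimulated genes with a promoter sequence (57.9%), in 3.87% of all 18028 genes with one, and in 4 of 57 mitosis genes (7.02%). A match describes the letters of the window and not a bound site.

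Antigen presentation by MHC class I, which interferons raise, was higher for 15 of 18 genes and lower for 1. B2m, the invariant chain of MHC class I, read 15.17, 13.66 and 15.04 at D2 and 19.66, 19.61 and 19.65 at D9, close to the top of the table, a rise of 5.02 (SE 0.39, adjusted p = 3.69e-04). H2-K1 rose by 4.41, and Psmb10, a subunit of the immunoproteasome, was at least 7.14-fold higher. Calr, the chaperone calreticulin, read 16.37, 16.54 and 16.57 and then 15.05, 15.20 and 15.11 and fell by 1.37. The lower member was thus a general chaperone of the endoplasmic reticulum and the members that rose were mostly MHC and peptide-loading genes.

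Of 38 chemokines and cytokines, 8 were higher and 6 lower, beside 13.5% and 20.3% of all genes, and most of the list was below background. Of the 8 higher, 2 were below background on all arrays, and of the 6 lower, 3 were. The 6 became 3 without experiment 3 and 1 without experiment 4, 5 or 6. Ccl2, which attracts monocytes, read 6.27, 5.51 and 6.48 at D2 and 10.08, 10.14 and 9.69 at D9, a rise of 3.88 (SE 0.27, adjusted p = 2.77e-04) from a D2 mean at background. Ccl5 was at least 3.50-fold higher, and the neutrophil attractant Cxcl1 fell by 1.32, a call that ended without experiment 3, 4, 5 or 6 (adjusted p = 0.0508 to 0.0979). Complement and acute phase genes had 16 of 32 higher and 4 lower, with C4b at least 51.5-fold and Itih4 at least 25.2-fold higher. For both of these, experiment 6 was the lowest of the D9 arrays, at 11.10 for C4b and 9.71 for Itih4. Of 16 macrophage markers, 2 were above background, Cd68, which fell by 1.62, and Cd14, which was called higher and passed background at D9 alone (adjusted p = 0.0180, and 0.0541 without experiment 2). The mean over the 16 was 4.68 to 4.92 at D2 and 4.52 to 4.59 at D9.

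Genes of cell division moved the other way. Of 67 mitosis and cytokinesis genes, 63 were lower and 0 higher (median −2.57). Of 61 genes of DNA replication and nucleotide synthesis, 51 were lower and 1, Rfc1, was higher (median −1.63). With genes below background on a whole day set at their bounds, the medians were −1.81 over 65 mitosis genes and −1.35 over 55 replication genes. The call on Rfc1 ended without experiment 3, 4, 5 or 6 (adjusted p = 0.0505 to 0.0966). Top2a, the topoisomerase that untangles chromosomes, read 10.99, 12.94 and 12.87 at D2 and 6.55, 6.39 and 7.62 at D9. This gene fell by 5.42 (SE 0.59, adjusted p = 0.00123), or by 6.05 without experiment 1, with no overlap between days. Mki67, the proliferation marker, read 8.39, 12.98 and 12.13 and then 6.53, 6.22 and 8.03, and fell by 4.24 (SE 1.18, adjusted p = 0.0336). Without the D2 array of experiment 1 it fell by 5.63 (adjusted p = 0.00326), and without any other array it was not called (adjusted p = 0.0592 to 0.0957). Ube2c and Plk1, which drive anaphase and spindle assembly, fell by 4.71 and 4.66, and the cyclin gene Ccna2 by 4.22 (4.86 without experiment 1).

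Of the replication genes, Mcm5, part of the helicase that opens origins, read 8.56, 9.52 and 8.89 at D2 and 5.08, 4.75 and 5.28 at D9, at least 6.99-fold lower (adjusted p = 2.47e-04). Rrm2, which makes deoxynucleotides, fell by 4.43, or by 5.13 without experiment 1, and Pcna, the sliding clamp, by 1.81. The mean of 65 mitosis genes was 7.70 on the D2 array of experiment 1, 9.12 and 8.75 on the other D2 arrays and 5.76, 5.72 and 6.21 at D9. Experiment 1 was therefore low for both adipocyte and division genes at D2, and experiment 6 was the highest D9 array for the division genes.

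**Figure D4:**
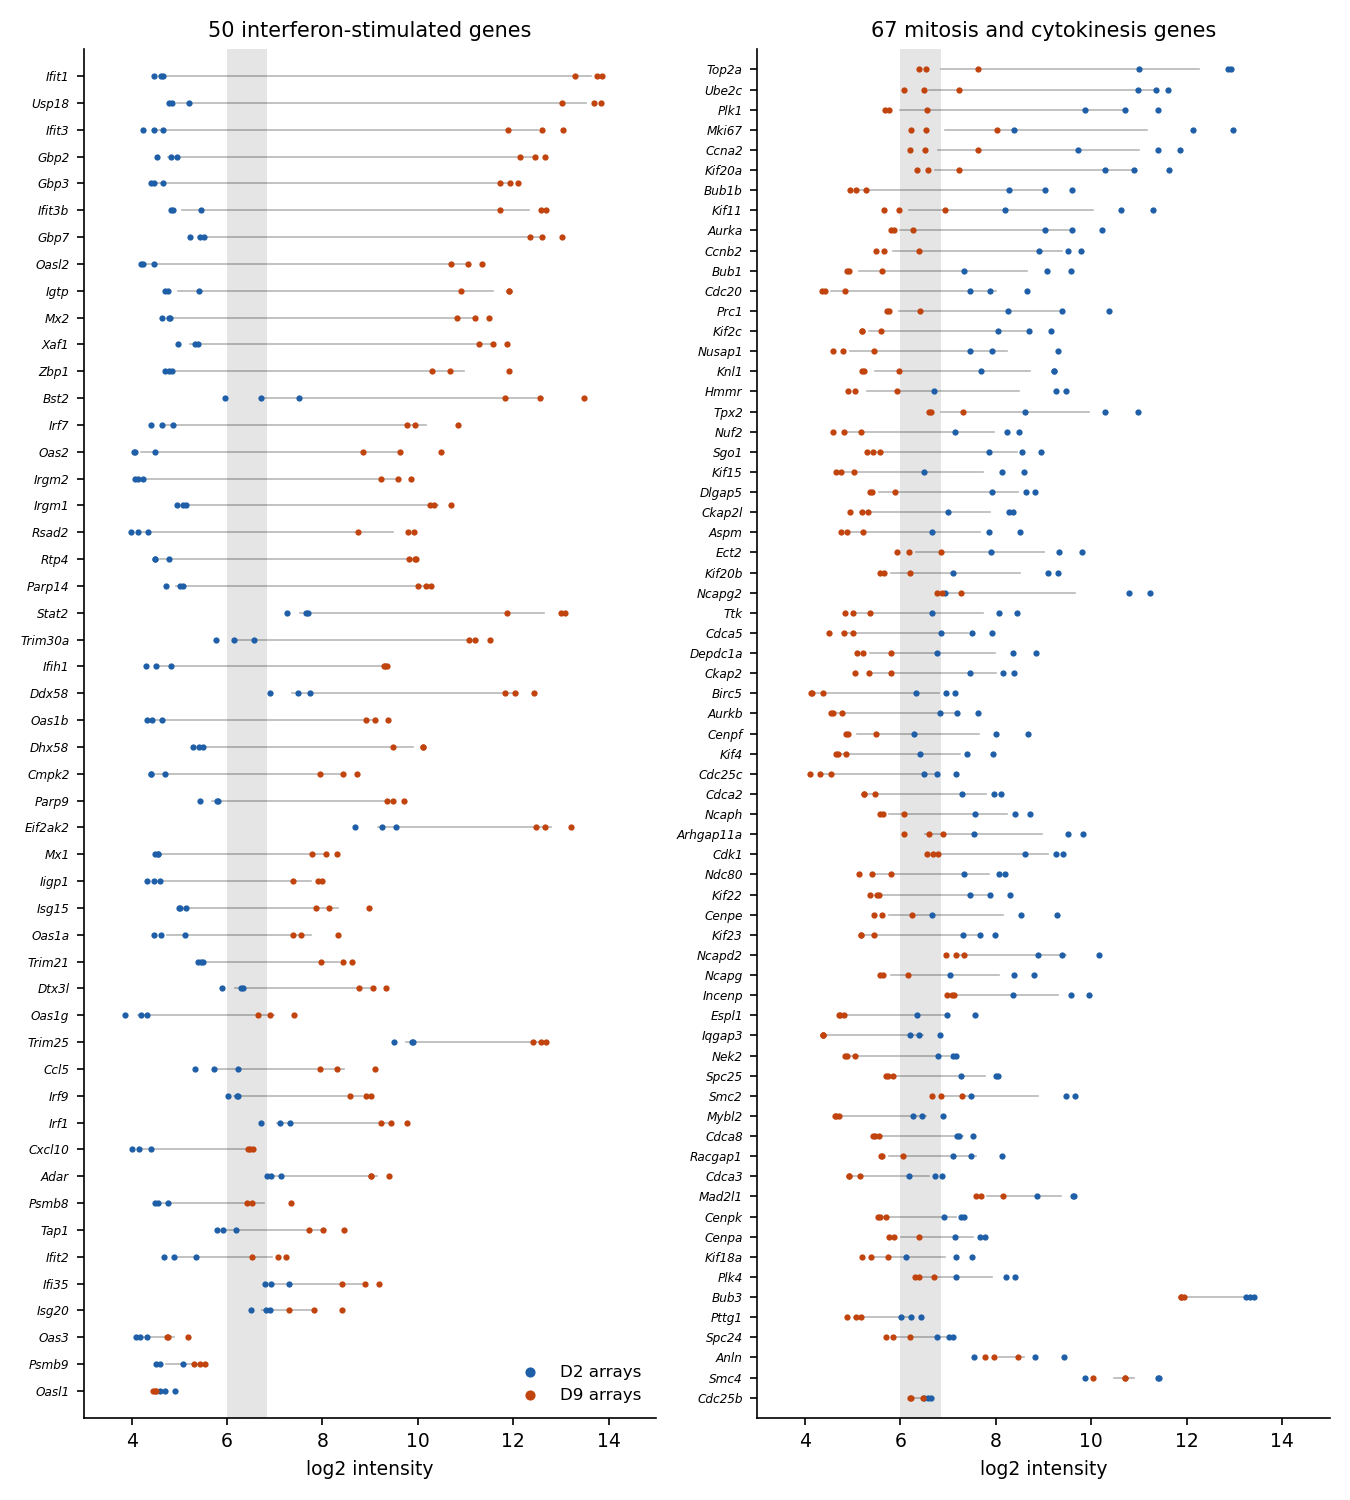
Log2 intensity on each Ctrl-siRNA array of interferon-stimulated genes and of mitosis genes, 1 line of points per gene, D2 and D9 in separate colours and the range of the background limit as a grey band. Ifit1 moves from between 4.46 and 4.66 at D2 to between 13.28 and 13.87 at D9, while Top2a moves from between 10.99 and 12.94 to between 6.39 and 7.62.

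Mitotic genes are held silent outside division by the DREAM complex and activated by B-MYB, FOXM1 and NF-Y through a CHR element and CCAAT boxes near their starts. Promoter stretches of 4 such genes are shown with matches to the CHR letters TTTGAA and to the box CCAAT, on either strand, in capitals. Top2a covers chr11:99024199-99024295 on the minus strand, 106 to 10 bases before the start, and Ube2c chr2:164769833-164769913 on the plus strand, 96 to 16 bases before. Kif11, a spindle motor, covers chr19:37376329-37376376 on the plus strand, 53 to 6 bases before, and Cdc20, an activator of anaphase, chr4:118437344-118437404 on the minus strand, 61 to 1 bases before.
Top2a: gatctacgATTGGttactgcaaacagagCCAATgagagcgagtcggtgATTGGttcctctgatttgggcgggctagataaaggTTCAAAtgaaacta
Ube2c: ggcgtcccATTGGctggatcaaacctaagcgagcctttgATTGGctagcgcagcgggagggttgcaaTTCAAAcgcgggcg
Kif11: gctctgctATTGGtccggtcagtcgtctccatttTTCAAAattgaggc
Cdc20: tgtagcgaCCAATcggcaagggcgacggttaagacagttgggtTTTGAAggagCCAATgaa
On both strands of the same windows, TTTGAA lay in 42 of 57 mitosis genes (73.7%), in 9 of 49 replication genes (18.4%) and in 18.3% of all genes with a promoter sequence. CCAAT lay in 39 of 57 mitosis genes (68.4%), 30 of 49 replication genes (61.2%) and 41.6% of all. Kif11 fell by 3.85, or by 4.77 without experiment 1, and Cdc20 was at least 3.50-fold lower.

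Histone genes, many of which are made in bulk while cells copy DNA, were lower in part. The group held 31 measured genes with H1f, H2ac, H2bc, H3c or H4c symbols and was chosen after their values were seen. Of these, 17 were lower and 1 higher. The median difference was −1.03, or −1.70 over the 24 above background. H2ac10 read 17.39, 18.17 and 17.21 at D2 and 11.65, 12.70 and 13.18 at D9, a fall of 5.08, and its near-identical copies may share its signal. Of 25 G1 cyclins, kinase inhibitors and retinoblastoma genes, 7 were higher and 9 lower, with 5 and 4 lower without experiments 4 and 6. Rb1, which encodes the retinoblastoma protein that holds cells in G1, read 7.58, 9.33 and 8.92 and then 11.73, 11.54 and 12.07 and rose by 3.17. Myc fell by 2.03 and the kinase inhibitor gene Cdkn1a by 1.04. Neither was called without experiment 6 (adjusted p = 0.0510 and 0.0795), and Cdkn1a was not called without experiment 2 or 4 (adjusted p = 0.0512 and 0.0735).

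Genes that dexamethasone and IBMX induce were lower more often than higher at D9. Neither agent was in the medium then, but medium changed together with day and its part was not tested. Of 34 such genes, 18 fell and 4 rose, beside 20.3% and 13.5% of all genes, and their median difference was −0.90. Of the 18, 3 were below background on all arrays. The 4 were Ppargc1a, Klf15 and Crem, at least 2.91-fold, 2.14-fold and 1.23-fold higher, and Angptl4, which rose by 0.83. Angptl4 was not called after quantile normalisation (adjusted p = 0.0707) or without experiment 1 (adjusted p = 0.0840). Fkbp5, a chaperone of the glucocorticoid receptor and a standard marker of its activity, read 10.09, 10.49 and 10.29 at D2 and 6.76, 6.66 and 6.33 at D9. This gene fell by 3.71 (SE 0.17, adjusted p = 7.31e-05), with no overlap. Dusp1, a phosphatase of MAP kinases, read 13.86, 12.56 and 11.37 and then 8.18, 8.39 and 8.62, and fell by 4.20, or by 3.57 without experiment 1. Tsc22d3, which encodes the glucocorticoid-induced leucine zipper, fell by 2.17, Zbtb16 by 2.16, Per1 by 2.66 and the metallothionein genes Mt1 and Mt2 by 2.48 and 3.20.

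Matrix genes were called in both directions. Of 26 collagens, 2 were higher and 6 lower, beside 13.5% and 20.3% of all genes, and of 44 other matrix genes, 6 were higher and 14 lower. Without experiment 4 or 6 the lower genes numbered 3 and 9. Vcan, a large proteoglycan, read 16.33, 16.91 and 16.84 at D2 and 12.96, 12.05 and 12.34 at D9, a fall of 4.24 (SE 0.27, adjusted p = 1.92e-04). Fn1, fibronectin, fell by 2.97, its receptor subunit Itga5 by 3.21, the crosslinking enzyme gene Loxl1 by 3.41 and Col6a1 and Col6a2, collagens of the pericellular matrix, by 1.74 and 2.40. Col1a1, the main fibrillar collagen, differed by 0.12 (adjusted p = 0.903). In the other direction Thbs1, thrombospondin, read 8.78, 6.83 and 8.43 and then 12.91, 11.49 and 12.23, a rise of 4.20, and Ogn rose by 3.81. Of 27 matrix proteases and inhibitors, 10 were higher and 4 lower. Mmp11, a stromelysin expressed in fat, was at least 25.7-fold higher, with D9 values of 11.64, 13.40 and 8.94, while the gelatinase gene Mmp2 fell by 2.86.

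The contractile cytoskeleton was split, with 9 of 33 genes higher, or 5 without experiment 6, and 9 lower. For this list and the Wnt and TGF-β lists below, the shares of all genes were 13.5% higher and 20.3% lower. Those of the brighter genes were 26.4% and 18.0%. Acta2, the smooth muscle actin gene, read 10.27, 7.41 and 8.15 at D2 and 12.75, 10.68 and 11.96 at D9, a rise of 3.19 (adjusted p = 0.0263), or 4.02 without experiment 1. It was not called after quantile normalisation (adjusted p = 0.0637) or without experiment 2, 3, 4 or 6 (adjusted p = 0.0631 to 0.0826). Myl9 and Tagln, which also serve smooth muscle contraction, were at least 2.43-fold and 1.17-fold higher. Flnc and Tagln2 fell by 1.98 and 2.03. Of 43 Wnt ligands, receptors and inhibitors, 13 were lower and 3 higher, with 8 and 7 lower without experiments 4 and 6. Of the 13, 5 were below background on all arrays. Lrp5, a Wnt coreceptor, read 13.38, 14.31 and 13.17 and then 9.86, 10.64 and 9.82, a fall of 3.52, and Tcf7l1, a nuclear partner of β-catenin, fell by 2.66. Of 53 genes of TGF-β and BMP signalling, 9 were higher and 16 lower (6, 8 and 6 lower without experiments 4, 5 and 6). Of the 16, 6 were below background on all arrays. Tgfbr2, the TGF-β receptor gene, fell by 2.89.

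Genes of cytosolic ribosomal proteins were mostly lower. Of 36 cytosolic ribosomal protein genes measured by a probe set with 1 symbol, 25 were lower and 0 higher (median −1.30), and of 54 genes of ribosome biogenesis, 22 were lower and 2 higher, with 37 lower without experiment 1. Of 33 aminoacyl-tRNA synthetase genes, 8 were higher and 4 lower, with 5 and 3 higher without experiments 4 and 6. The shares of the brighter genes were 26.4% higher and 18.0% lower. Rpl10a read 14.80, 14.69 and 14.65 at D2 and 11.75, 11.69 and 11.19 at D9, a fall of 3.17 (SE 0.18, adjusted p = 1.14e-04). Rps9 fell by 2.80 and Fbl, the methyltransferase of ribosomal RNA, by 2.18. Ribosomal protein genes have many processed pseudogenes, which can share probes.

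Genes that are often used as references were not level. Of 13 measured, 3 were higher and 6 lower. B2m rose by 5.02, Sdha by 3.31 and Pgk1 by 1.87, while Eef2 fell by 2.13, Rplp0 by 1.83, Ywhaz by 1.51, Nono by 1.33 and Actb by 1.14. Actb was not called after quantile normalisation, nor Pgk1 without experiment 3, 5 or 6 (adjusted p = 0.0503 to 0.0739). Tbp read 8.07, 8.28 and 8.43 at D2 and 8.14, 7.87 and 8.01 at D9 (difference −0.26, 95% confidence interval −0.61 to 0.09), and Hprt differed by 0.58 (adjusted p = 0.0939).

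Stress genes were raised in part. Of 34 genes of the ATF4 amino acid response, 12 were higher and 3 lower. The shares were 13.5% and 20.3% of all genes and 26.4% and 18.0% of the brighter ones. Nupr1, a stress-induced nuclear protein gene, read 7.07, 6.89 and 7.44 at D2 and 11.50, 12.79 and 11.68 at D9, a rise of 4.86 (SE 0.35). Ddit3, which encodes the factor CHOP, rose by 3.27 and Trib3 was at least 5.38-fold higher. Ero1a, the oxidase that forms disulphide bonds, read 9.85, 10.71 and 11.31 and then 14.05, 17.56 and 16.51, a rise of 5.42, but among 26 endoplasmic reticulum genes 10 were higher (6 without experiment 6) and 4 lower. Experiment 4 was the lowest D9 array for Ero1a, Cox7a1, Ppp1r3c and Pgk1.

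Antioxidant genes were higher for 17 of 34 and lower for 3, led by Gstm1, a glutathione transferase, which read 10.32, 8.77 and 8.47 and then 14.35, 14.14 and 14.46. It rose by 5.13 (SE 0.46). The haem oxygenase gene Hmox1 rose by 3.36 and Txnip, which binds thioredoxin, by 3.02. Lysosomal genes were higher for 19 of 39, or 12 without experiment 6, and lower for 2. Proteasome subunits were higher for 10 of 31 and lower for 2, or 6 and 5 after quantile normalisation. The shares of the brighter genes were 26.4% higher and 18.0% lower.

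Clock genes rose in part. Of 19, 10 were higher and 2, Per1 and Nfil3, were lower, the latter not without experiment 2, 4 or 6 (adjusted p = 0.0554 to 0.0677). Dbp, an output factor, read 7.45, 6.56 and 6.85 at D2 and 9.24, 10.11 and 9.83 at D9, a rise of 2.77 (SE 0.30, adjusted p = 0.00127). The repressor genes Nr1d1 and Nr1d2 rose by 1.66 and 2.47 and Rora by 2.98, and Per3 was at least 2.64-fold higher. Nuclear receptors and coactivators had 8 of 38 higher and 10 lower, beside the 13.5% and 20.3% of all genes, and without experiment 4 or 6 these were 5 higher and 6 or 5 lower. The vitamin D receptor gene Vdr fell by 2.83, or by 2.13 without experiment 1. Genes of retinol and xanthine metabolism had 6 of 32 higher and 5 lower (3 without experiment 4 or 6), and the retinol saturase gene Retsat rose by 4.00. Of the 5 lower, 4 were below background on all arrays.

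Markers of other cell types were mostly below background. No endothelial marker of 9 and no epithelial marker of 7 was above it on any array. Des, of 11 muscle markers, was at least 3.63-fold higher, Alpl, of 6 bone markers, at least 2.95-fold higher, and Sox9, of 9 cartilage markers, was the only one above background.

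Precursors of 607 miRNAs were measured, of which 26 were higher and 140 lower, and 6 higher and 46 lower among those above background on at least 3 arrays. The 26 and 140 are 4.28% and 23.1% of the precursors, beside 13.5% and 20.3% of all genes. Of the 140, 83 were below background on all arrays. The array reads the precursor and cannot tell its arms apart. Those described were chosen after their values were seen, and their mature sequences from RefSeq are shown, with the seed, bases 2 to 8, in capitals. No 2 of the 4 share a seed.
mmu-miR-365-3p: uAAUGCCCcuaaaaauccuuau
mmu-miR-193b-3p: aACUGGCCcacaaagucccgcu
mmu-miR-29a-3p: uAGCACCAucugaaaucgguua
mmu-miR-146b-5p: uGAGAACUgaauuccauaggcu
Mir365-1 and Mir193b lie next to each other on mouse chromosome 16, and both have been linked to brown fat differentiation in mouse. Mir365-1 read 5.61, 5.87 and 5.39 at D2 and 8.23, 9.01 and 8.33 at D9, at least 3.67-fold higher (adjusted p = 4.96e-04). Mir193b read 7.53, 6.77 and 6.24 and then 7.99, 8.56 and 8.16, a rise of 1.39 (adjusted p = 0.0217, and 0.0563 to 0.0642 without experiment 2, 5 or 6). For both, every D9 value lay above every D2 value. Mir29a rose by 1.46 (adjusted p = 0.0230, 0.0535 after quantile normalisation, and 0.0749 and 0.0516 without experiment 4 or 5). Mir146b, a brake on innate immune signalling, read 8.46, 8.28 and 8.10 and then 6.27, 5.74 and 5.97, at least 4.28-fold lower.

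A block of snoRNA genes rose together. The Snhg14 transcript of the imprinted Prader-Willi and Angelman region hosts long tandem arrays of snoRNA genes, which are processed from its introns and are expressed from the paternal copy, chiefly in neurons. On mouse chromosome 7, 170 snoRNA genes inside its RefSeq annotation were measured, a group chosen after the values were seen. Of these, 159 were higher and 0 lower (median 3.54, or 2.56 over the 132 that could be set at a bound or a measured difference), against 24 higher and 178 lower among 785 other snoRNA genes (median −0.32). The median over the 170 was 4.81, 4.89 and 4.38 on the D2 arrays and 8.12, 9.21 and 8.05 on the D9 arrays, with no overlap. Only 30 were above background on any D2 array and 118 were above it on all 3 D9 arrays. Copies are so alike that the 170 genes carry 78 distinct sets of values, so the count overstates the number of separate measurements. None of the 133 genes on the lower-coordinate side of Ipw was above background on any D2 array, against 30 of the 37 beyond its start, so the sizes of change on the 2 sides are not compared. The probe set of Snhg14 itself was below background on all 6 arrays, and neighbouring Ube3a differed by 0.37 (adjusted p = 0.425) and Snord64 by 0.20 (adjusted p = 0.582). The count was 159 without the D2 array of experiment 1 and 161 after quantile normalisation.

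**Figure D5:**
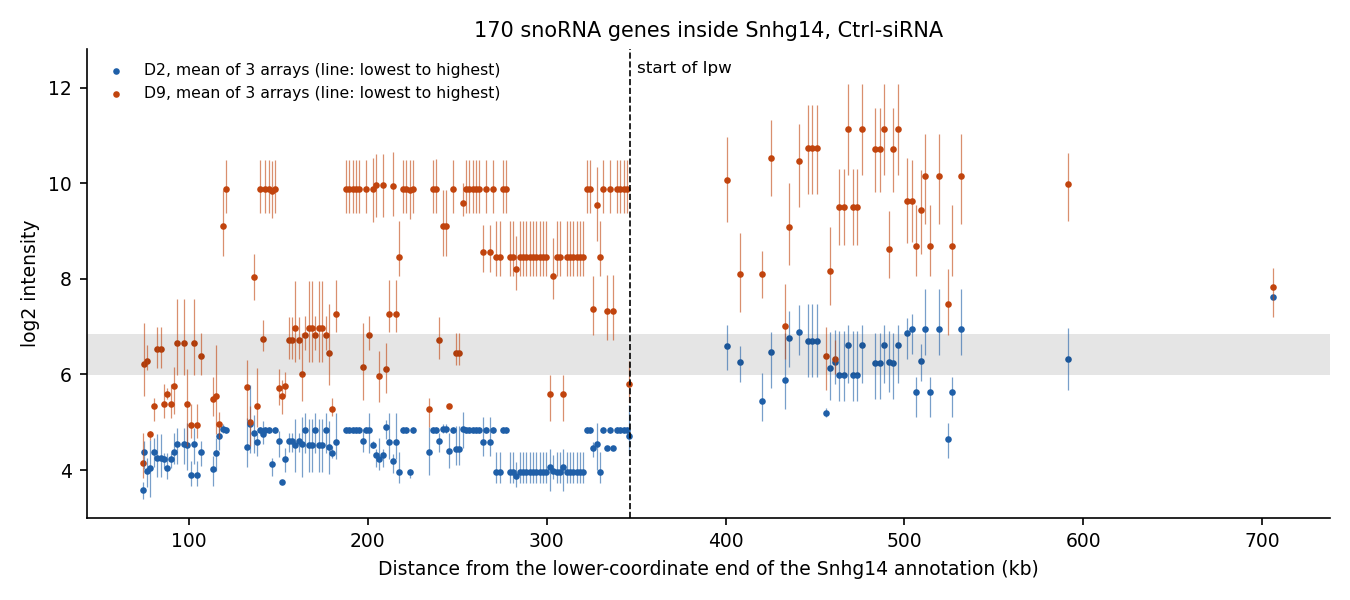
Mean log2 intensity of 170 snoRNA genes inside Snhg14 at D2 and at D9 (3 arrays each, line from lowest to highest, background range in grey) against distance in kilobases from the lower-coordinate end of the annotation. The D9 points lie above the D2 points along most of the array, with 159 of 170 called higher.

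Of a list of 25 imprinted genes, 3 were higher and 6 lower, beside the 13.5% and 20.3% of all genes. Of the 6 lower, 4 were below background on all arrays. Peg10, a retrotransposon-derived gene, read 13.92, 14.64 and 15.58 at D2 and 10.51, 11.53 and 11.14 at D9, a fall of 3.65, while its neighbour Sgce read 8.40, 7.44 and 7.97 and then 9.93, 9.73 and 10.12, a rise of 1.99.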

How the data were processed

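The authors hybridised total RNA of 12 3T3-L1 samples to mouse transcriptome arrays, 1 colour each. They deposited 1 table of log2 intensities after GC count normalisation, signal space transformation and RMA. For RMA, the paper's methods name background correction and gene-level summary in Partek Genomics Suite, and no quantile step. Whether the deposited table was quantile normalised was not settled. Over the genes tested, medians of the Ctrl-siRNA arrays ran from 5.21 to 5.53. The submitters' processing notes name Affymetrix Expression Console 1.4.1, and the sources used here do not say whether all arrays were normalised together. The deposited log2 values entered every test without further scaling. Probe sets were named through the platform annotation, with 330 symbols updated through RefSeq (GRCm38.p6). The 2176 probe sets with several symbols were left out, and of several probe sets of a gene (427 genes) the brightest over all arrays was kept. The files name no genome build, so coordinates are given only with printed sequences and are those of RefSeq.

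The 3 D9 and 3 D2 Ctrl-siRNA arrays were compared with limma 3.58.1 (lmFit and eBayes, two-sided, Benjamini-Hochberg over 30098 genes) in R 4.3.3, with tables handled in Python 3.11.15 and pandas 2.3.3. The fit was tested on simulated data. The methods' t-test was an alternative. With 3 against 3 arrays an exact permutation test cannot go below p = 0.1, and precision is limited by the small number of arrays. The brightest of the background probe sets lay at 6.46 to 6.84 on D2 arrays and 5.99 to 6.40 on D9 arrays. Titles number the arrays 1 to 3 in both days, but the days come from different experiments. Deviations of arrays with the same number correlated at −0.34, −0.40 and 0.03, so the numbers were not used as pairs.

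Gene lists were read by the counts of members called and their median, beside those of all genes. The members and lists were chosen with earlier results of these data known. Genes named were 24 set core genes (20 of them measured), the 15 largest calls in each direction with no overlap between days, and up to 4 called members of each list with the largest difference. Other genes, the histone, miRNA and snoRNA groups among them, were named after their values were seen. Promoter windows were searched on both strands for GAAANNGAAA, for TTTGAA and for CCAAT. Alternatives were other samples in the fit, blocks, normalisations, filters, probe set rules, tests, array weights, a floor for dim values and leaving out each array. The Paral1-siRNA arrays served only in the choice of the brightest probe set over all arrays and in the 12-array alternatives. Paral1 and Rbm14 are not analysed here.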

Additional observations from a re-analysis of the deposited data

How the results depend on the processing

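All 18 other settings could be run. With the 6 arrays as in the main comparison, 4078 genes were higher and 6096 lower. The count of higher genes stayed within 1.5 times of this under all 18. Leaving out each array gave 2746 to 4750 higher and 2746 to 6115 lower genes, with the lowest counts without D9 experiment 6 (lower genes numbered 3239 without experiment 4 and 2746 without experiment 6). By the 1.5-fold rule these ranges were 3743 to 4205 and 4439 to 5707. Lower genes numbered 2011 when dim genes were left out and 20287 when dim values were raised to the background limit, which is higher on D2 arrays, and by the 1.5-fold rule 2349 and 2937. A replicate block on the title numbers left 3011 higher and 3289 lower genes, and these numbers do not pair the arrays. Of the genes called in the main comparison, 3387 higher and 4501 lower kept their call after quantile normalisation, and 0 were called in the opposite direction. Of 178 called genes named in the text and followed through the alternatives, 146 kept direction and call under each. The methods' t-test ended 27 of the calls. Direction turned for Lep (−0.31), Cd14 (−0.070) and Ucp1 (−0.46) when dim values were raised, for Col1a1 after quantile normalisation (−0.23) and with array weights (−0.13), for Prdm16 (0.0034) and Ube3a (−0.0083) after quantile normalisation, and for Snhg14 with array medians subtracted (0.085) or probe sets averaged (0.095). Leaving out each array gave −0.50 to 0.81 for Col1a1, −0.159 to 0.054 for Snhg14 and −0.015 to 0.575 for Ube3a. Of 969 pairs of a list count of at least 5 and an alternative, 876 were within 1.5 times.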
